A study of Mus musculus with 52 samples.

Results

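The interleukin-1 (IL-1) family genes *Il1a*, *Il1b*, *Il1rn*, *Il1r1*, *Il1r2*, *Il1rap*, *Il33* and *Il1rl1* were examined in mouse tumors treated with a STING agonist, a lymphotoxin-β receptor (LTβR) agonist or both. The 8 genes were taken by symbol from a table of normalized read counts with 27525 genes, and all 8 passed the filter on low values in every comparison. In tumors given both agents *Il33*, *Il1r1*, *Il1a* and *Il1rn* were higher than in untreated tumors. The calls of *Il1a* and *Il1rn* were lost with covariates for skin and muscle markers, and that of *Il1rn* also in 8 of 16 fits with 1 tumor left out. *Il1b* passed the test in none of the comparisons. *Il1rl1*, the IL-33 receptor, was lower after anti-LTβR alone than in untreated tumors and higher after both agents than after anti-LTβR alone.

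The tumors grew from KPC cells, a line from pancreatic tumors of *Pdx1*-Cre mice carrying *Trp53* LSL.R172H/+, in which Cre under the *Pdx1* promoter switches on the mutant allele. The cells were placed under the flank skin of syngeneic male C57BL/6 mice aged 8 to 10 weeks, so the tumors did not grow in the pancreas and all came from 1 line. ADU-S100, a cyclic dinucleotide that activates STING, was injected once into the tumor at 2 μg on day 0, and the agonistic anti-LTβR antibody 4H8 was given into the peritoneum at 100 μg up to day 10, in 4 doses. Tumors of the 4 groups (untreated, ADU-S100, anti-LTβR and the combination) were resected on day 14, with 8 individual tumors per group, and sequenced as poly(A) RNA.

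The IL-1 family links tissue injury to inflammation. IL-1α and IL-1β (*Il1a*, *Il1b*) bind IL1R1, which then recruits the accessory chain IL1RAP and signals through MYD88 and the IRAK kinases to NF-κB. The antagonist encoded by *Il1rn* occupies IL1R1 without signalling, and IL1R2 is a decoy that binds IL-1 and carries no signalling domain. IL-33 is a nuclear cytokine of fibroblasts, endothelium and epithelium that is released on damage, and it acts through ST2, the product of *Il1rl1*, together with the same accessory chain. ST2 marks mast cells, type 2 innate lymphoid cells and a subset of regulatory T cells, and a soluble form made from the same gene captures IL-33.

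Recovered reads per library ran from 12762453 to 15591986. Levels are given as the deposited normalized counts, whose scaling was not recovered. The reads came from a separate set of values for these libraries. In bulk tumors fewer cells of a type and less RNA per cell cannot be told apart. Epithelial tumor cell markers were present in all libraries (summed level of 7 genes 7668 to 34370). Markers of neighbouring tissue varied widely within every group. The sum of 9 skin keratinocyte markers ran from 1976 to 77180 and that of 6 skeletal muscle markers from 5787 to 361700, and none of these 15 genes was at 0 in any tumor. Each comparison was therefore also fitted with both sums as covariates, a choice made after seeing the data, and these values are given where they change a call.

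*Il1rl1* and *Il33* have a pair of annotated transcription start sites each. The *Il1rl1* promoters are known to differ in use, the upstream (distal) promoter in mast cells and T helper 2 cells and the downstream (proximal) promoter in fibroblasts. The counts are per gene, so the start site used in these tumors was not measured. The windows of 250 bases before each start are shown because this ligand and its receptor are among the genes called below and each has alternative starts. They are RefSeq sequences on GRCm38.p6, plus strand, 5′ to 3′, and capitals mark the motif AGATAA (reverse TTATCT), which GATA factors can bind.
Il1rl1, distal start, chr1:40429320-40429569: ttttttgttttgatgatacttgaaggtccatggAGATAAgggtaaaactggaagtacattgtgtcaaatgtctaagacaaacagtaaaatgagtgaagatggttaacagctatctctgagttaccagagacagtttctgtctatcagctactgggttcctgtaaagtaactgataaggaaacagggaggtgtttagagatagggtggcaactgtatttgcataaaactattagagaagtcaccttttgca
Il1rl1, proximal start, chr1:40439379-40439628: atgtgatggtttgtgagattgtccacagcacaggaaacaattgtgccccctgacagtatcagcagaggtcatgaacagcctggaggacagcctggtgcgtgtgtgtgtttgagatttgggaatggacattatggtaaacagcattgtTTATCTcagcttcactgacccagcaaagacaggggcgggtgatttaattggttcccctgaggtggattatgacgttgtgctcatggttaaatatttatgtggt
Il33, upstream start, chr19:29924863-29925112: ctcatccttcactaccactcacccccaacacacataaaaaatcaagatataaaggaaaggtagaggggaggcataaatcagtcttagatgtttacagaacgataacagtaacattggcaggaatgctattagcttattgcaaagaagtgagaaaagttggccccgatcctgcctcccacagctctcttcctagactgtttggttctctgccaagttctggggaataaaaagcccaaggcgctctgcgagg
Il33, downstream start, chr19:29945540-29945789: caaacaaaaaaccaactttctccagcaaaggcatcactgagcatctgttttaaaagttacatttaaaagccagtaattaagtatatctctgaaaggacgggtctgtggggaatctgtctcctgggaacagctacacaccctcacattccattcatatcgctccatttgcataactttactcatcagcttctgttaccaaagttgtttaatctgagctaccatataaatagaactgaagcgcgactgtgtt
Each *Il1rl1* window held 1 AGATAA match, at 217 bases before the distal start and on the other strand at 103 bases before the proximal start. The motif was in 9.99% of 32851 such windows. The *Il33* windows held neither this motif nor a κB pattern (GGG and CC with any 5 bases between) nor an interferon regulatory factor pattern (GAAA repeated after any 2 bases). All were searched on both strands, and overlapping matches were counted. The κB pattern was in 45.8% and the interferon regulatory factor pattern in 2.98% of all windows. All members had RefSeq start sites (13 windows), and among the windows not shown κB matches were in that of *Il1rap* (6, some overlapping), in 2 of 3 of *Il1rn* and in 1 of 2 of *Il1r1*.

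Per kilobase of exon the 8 genes spanned a wide range of levels. The length was the union of all annotated exons of a gene, and the order depends on it. By counts without length, untreated tumors had means of 915 ± 122 for *Il1r1*, 829 ± 305 for *Il33*, 799 ± 151 for *Il1rn* and 629 ± 241 for *Il1b*. In untreated tumors *Il1b* (330 ± 127 normalized counts per kb, SD, n = 8) and *Il33* (287 ± 106) stood highest, and *Il1b* exceeded *Il33* in only 5 of 8 tumors. *Il1rn* (144 ± 27.3) and *Il1r1* (144 ± 19.2) followed and could not be ordered. *Il1r2* (68.7 ± 13.7) came next, above *Il1a* in 8 of 8 tumors. *Il1a* (37.2 ± 8.19) and *Il1rap* (37.0 ± 4.34) did not differ beyond their spread, and *Il1rl1* (16.1 ± 3.65) was the lowest in every tumor. The order of the top pair differed in anti-LTβR tumors, where *Il33* (304 ± 69.0 per kb) was above *Il1b* (260.4 ± 55.6 per kb) in 6 of 8 tumors, and in combination tumors, where *Il33* (473 ± 108 per kb) was above *Il1b* (301 ± 49.8 per kb) in 7 of 8 tumors.

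**Figure D1:**
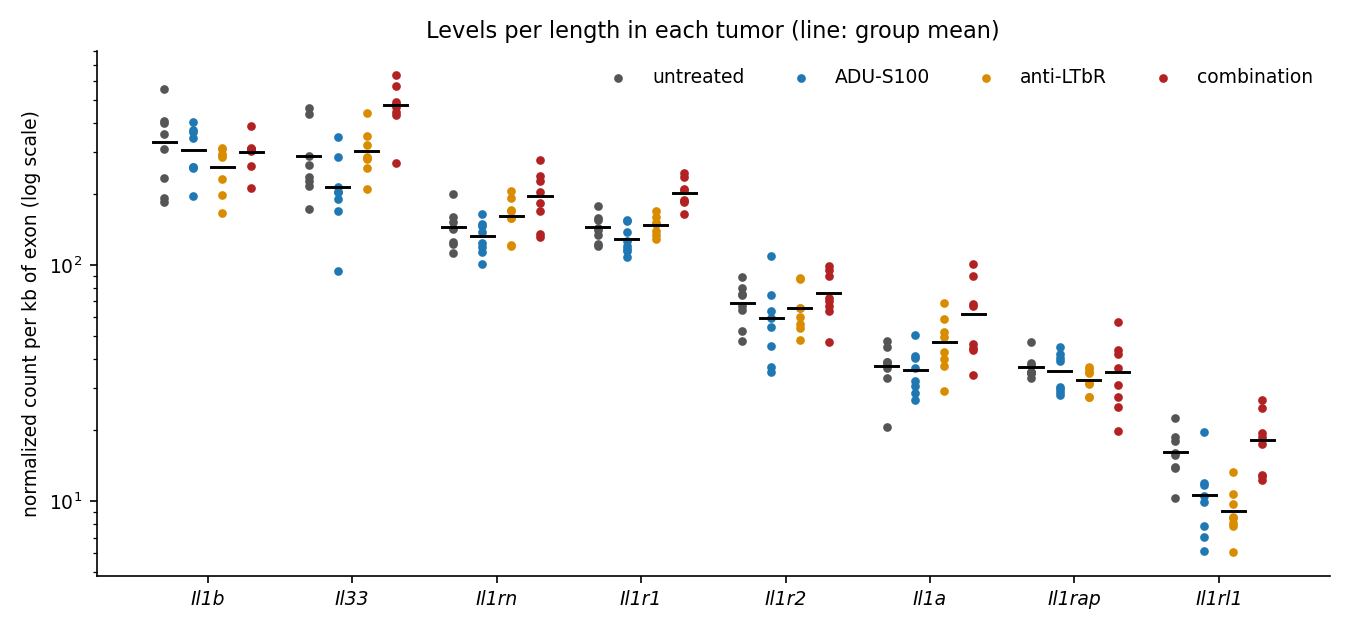
Normalized counts per kb of exon (log scale) for the 8 genes, ordered by their mean in untreated tumors; each point is 1 tumor, colors are the 4 groups and black lines are group means. *Il1b* and *Il33* lie at the top and *Il1rl1* at the bottom in all 4 groups, with *Il33* at 473 per kb in combination tumors.

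The first question was what both agents together changed. Of the 8 genes 4 passed an adjusted p of 0.05 in combination against untreated tumors, all higher, whereas 43.2% of all 16909 genes tested passed, 19.6% as higher. The share called in either direction thus lay near the background of this comparison, and the share called as higher lay above it. The 8 genes were chosen with earlier results of these data known, and this difference was not tested. The median log2 fold change was 0.28 over the 8 genes and -0.02 over all genes tested. None reached a 2-fold change, which 6.12% of all genes tested did with that p. The groups overlapped for each of the 8 genes, and 4.64% of all genes tested lay higher without overlap.

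*Il33* had the largest log2 fold change of the 8 genes, while by the ratio of means *Il1a* (1.66-fold) and *Il33* (1.65-fold) were nearly level. Its normalized counts ran from 496 to 1332 with a median of 721 in untreated tumors and from 780 to 1842 with a median of 1360 in combination tumors. Of the combination tumors 5 of 8 lay above every untreated tumor, and combination tumor 6 was low within its group. For *Il33* the log2 fold change was 0.76 (SE 0.200, 95% interval 0.33 to 1.18, adjusted p = 0.00605 from limma). It was 0.75 with the skin and muscle covariates (adjusted p = 0.0122 from limma).

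*Il1a*, the alarmin form of IL-1, ran from 40.5 to 94.0 with a median of 75.4 in untreated tumors and from 67.5 to 198 with a median of 112 in combination tumors. The groups overlapped, with 4 of 8 combination tumors above all untreated ones. The log2 fold change of *Il1a* was 0.67 (SE 0.219, adjusted p = 0.0210 from limma). With the skin and muscle covariates it was 0.60 and no longer passed (adjusted p = 0.0764).

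*Il1b*, the inflammasome-processed cytokine that lies beside *Il1a*, gave the contrast. It ran from 353 to 1059 with a median of 636 in untreated tumors and from 405 to 741 with a median of 590 in combination tumors. Every combination tumor lay inside the untreated range. The log2 fold change of *Il1b* was -0.06 with a 95% interval of -0.48 to 0.37, which spans changes in both directions. Both genes lie on chromosome 2 of GRCm39, *Il1a* at 129141530 to 129151892 and *Il1b* at 129206490 to 129213059, on the minus strand. The ratio of *Il1b* to *Il1a* counts had a median of 8.85 (5.00 to 13.9) in untreated tumors, 8.25 (6.05 to 10.8) after ADU-S100, 5.33 (4.07 to 7.52) after anti-LTβR and 4.58 (3.35 to 7.40) after both.

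*Il1rn*, the receptor antagonist, ran from 621 to 1104 with a median of 788 in untreated tumors and from 727 to 1534 with a median of 1067 in combination tumors. Of the combination tumors 4 of 8 exceeded all untreated ones. The log2 fold change was 0.41 (SE 0.152, adjusted p = 0.0363 from limma). This call was the least stable of the 4. It was lost when any 1 of 8 tumors was left out (untreated 1, 2, 6 or 8, or combination 1, 2, 3 or 5), with adjusted p from 0.0515 to 0.0743 in those fits, and with the skin and muscle covariates (log2 fold change 0.37, adjusted p = 0.0965).

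*Il1r1*, the signalling receptor, had the largest change relative to its standard error. It ran from 767 to 1132 with a median of 901 in untreated tumors and from 1041 to 1555 with a median of 1254 in combination tumors. Of the combination tumors 7 of 8 lay above every untreated tumor. The log2 fold change was 0.49 (SE 0.0910, 95% interval 0.30 to 0.68, adjusted p = 0.000498 from limma), and it was 0.50 with the skin and muscle covariates (adjusted p = 0.00152).

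The other receptor chains did not pass in this comparison. The decoy receptor *Il1r2* averaged 144 ± 33.8 normalized counts with both agents against 131 ± 26.2 untreated (SD, n = 8 each, log2 fold change 0.13, 95% interval -0.20 to 0.46). The accessory chain *Il1rap* averaged 401 ± 138 with both agents against 420 ± 49.3 untreated (log2 fold change -0.13, 95% interval -0.49 to 0.23). Its combination tumors were spread from 225 to 652, which took in the whole untreated range of 377 to 533. *Il1r1* counts were a median of 6.91 times those of *Il1r2* in untreated tumors (5.33 to 9.34) and 9.66 times in combination tumors (6.24 to 13.1), and these ranges overlapped.

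**Figure D2:**
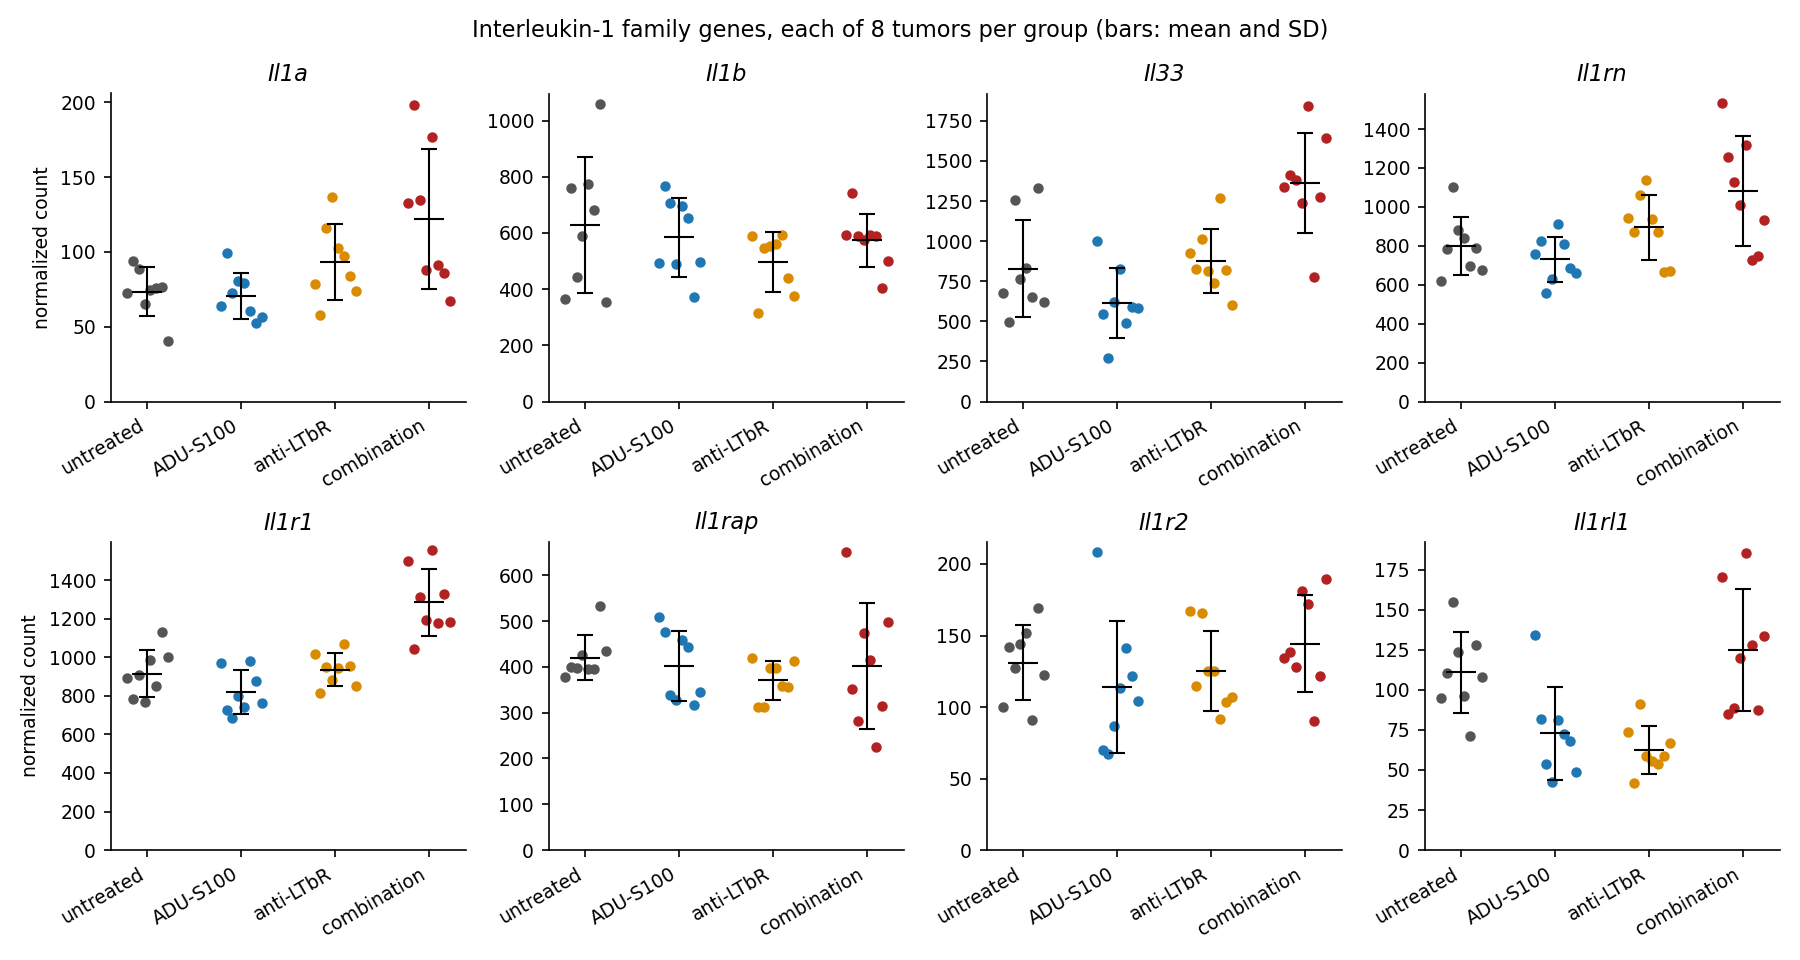
Normalized counts of each gene (y axis, linear from 0) in the 8 tumors of each group; points are tumors, and bars are the mean and SD. *Il33* and *Il1r1* are highest in the combination, *Il1b* overlaps in all groups, and *Il1rl1* has means of 111, 72.8, 62.6 and 125 in the order of the panels' groups.

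Each agent alone was then compared with the same 8 untreated tumors. After anti-LTβR 1 of 8 genes passed, as lower, against 15.3% of the 16691 genes tested, 8.10% of them as lower. This was *Il1rl1*. It ran from 71.1 to 155 with a median of 109 in untreated tumors and from 42.0 to 91.2 with a median of 58.7 in anti-LTβR tumors. Of the anti-LTβR tumors 6 of 8 lay below every untreated tumor. The mean was 0.564 of the untreated mean, and *Il1rl1* fell by 0.82 on the log2 scale (SE 0.160, 95% interval of the log2 fold change -1.15 to -0.48, adjusted p = 0.00522 from limma). Of 12 mast cell markers tested 9 were lower in the same comparison, with a median log2 fold change of -2.19 over the 12. Of 9 skin keratinocyte markers 2 were lower, *Krt6a* (-1.87, adjusted p = 0.0233) and *Krt16* (-1.59, adjusted p = 0.0308), and with the skin and muscle covariates the log2 fold change of *Il1rl1* was -0.76 (adjusted p = 0.0266).

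The other 7 genes did not pass after anti-LTβR, with log2 fold changes from -0.28 (*Il1b*) to 0.33 (*Il1a*). *Il1a* ran from 57.6 to 136 with a median of 90.6, and 4 of 8 anti-LTβR tumors lay above all untreated tumors (adjusted p = 0.208 from limma). *Il1r1* and *Il33* had log2 fold changes of 0.04 (95% interval -0.13 to 0.20) and 0.13 (-0.27 to 0.53).

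After ADU-S100 0 of 8 genes passed with limma, as did 0% of the 16613 genes tested, while 1 of 8 genes and 14.5% of all genes had an unadjusted p under 0.05. No member was called by edgeR or DESeq2 on recovered reads either, which called 1 and 24 of all genes. The single gene was again *Il1rl1*, which ran from 42.2 to 135 with a median of 70.4. Of the ADU-S100 tumors 4 of 8 were below every untreated tumor, and ADU-S100 tumor 1 stood apart as the highest. The log2 fold change was -0.65 (SE 0.206, unadjusted p = 0.00556, adjusted p = 0.276 from limma). All 8 log2 fold changes were negative in this comparison, from -0.65 to -0.05. For *Il33* the value was -0.44 (95% interval -0.95 to 0.07), with counts from 271 to 1003 and a median of 586.

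The combination was next compared with each agent alone. Against anti-LTβR 3 of 8 genes passed, all higher, and 26.6% of 16932 genes tested passed, 11.3% as higher. *Il1rl1* averaged 125 ± 38.0 normalized counts with both agents against 62.6 ± 14.9 with anti-LTβR (SD, n = 8 each). Of the combination tumors 5 of 8 lay above every anti-LTβR tumor, and its log2 fold change was 0.96 (SE 0.183, adjusted p = 0.00191 from limma). The changes of *Il33* (0.63, adjusted p = 0.00880) and *Il1r1* (0.45, adjusted p = 0.00118) also passed. *Il1r1* was above all anti-LTβR tumors in 7 of 8 combination tumors.

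Against ADU-S100 5 of 8 genes passed, all higher, and 46.2% of 16811 genes tested passed, 20.2% as higher. The log2 fold change was 1.20 for *Il33* (adjusted p = 0.000323), 0.80 for *Il1rl1* (0.00801), 0.72 for *Il1a* (0.00995), 0.65 for *Il1r1* (4.79e-05) and 0.54 for *Il1rn* (0.00665). *Il33* was the only one of the 8 past 2-fold, as were 6.17% of all genes tested. *Il1r1* was the only gene of the 8 whose groups did not overlap in any comparison, with 1041 to 1555 in combination against 684 to 983 in ADU-S100 tumors. Of all genes tested 5.00% were without overlap in that direction. The decoy *Il1r2* did not pass (0.39, adjusted p = 0.144), but it did when ADU-S100 tumor 1 was left out (0.53, adjusted p = 0.0281). With the skin and muscle covariates the value of *Il1r2* was 0.16 (adjusted p = 0.410). Comparisons with the combination share its 8 tumors, and those with untreated tumors share the untreated ones.

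Whether the effect of one agent differed with and without the other was tested by the interaction over all 32 tumors. Of the 8 genes 3 passed, all positive, against 18.4% of 17649 genes tested, 7.33% of them positive. For *Il1rl1* the interaction was 1.61 on the log2 scale (SE 0.282, 95% interval 1.04 to 2.19, adjusted p = 0.000521 from limma). Its mean level was 111 ± 25.1 without treatment, 72.8 ± 28.9 after ADU-S100, 62.6 ± 14.9 after anti-LTβR and 125 ± 38.0 after both (SD, n = 8 per group). The combination against untreated tumors did not pass for this gene (log2 fold change 0.14, 95% interval -0.24 to 0.53).

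The interaction was 0.61 for *Il1r1* (SE 0.123, adjusted p = 0.00135) and 1.07 for *Il33* (SE 0.300, adjusted p = 0.0130). With the skin and muscle covariates it was 1.31 for *Il1rl1* (adjusted p = 0.00257) and 0.49 for *Il1r1* (0.00616), and that of *Il33* no longer passed (0.76, adjusted p = 0.0686). The interaction of the other 5 genes ran from 0.13 (*Il1rap*) to 0.46 (*Il1r2*) and did not pass. With the covariates that of *Il1rap* was -0.16 and that of *Il1r2* 0.0474. Markers of other cells moved in the same comparison. The interaction was above 0 for 10 of 10 fibroblast, 10 of 10 endothelial, 14 of 14 mast cell and 9 of 9 skin keratinocyte markers. It passed the test as positive for 9, 9, 5 and 3 of them, the last being *Krt6a* (3.64), *Krt16* (3.08) and *Krt14* (2.70). The interaction also passed as positive for 4 of 6 regulatory T cell markers. It was above 0 for 12 of 12 monocyte and macrophage and 11 of 11 neutrophil markers, with 1 of each passing, and for 0 of 6 skeletal muscle markers. The covariate fit held only the skin and muscle sums, and the part of the other cells in these results was not tested.

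**Figure D3:**
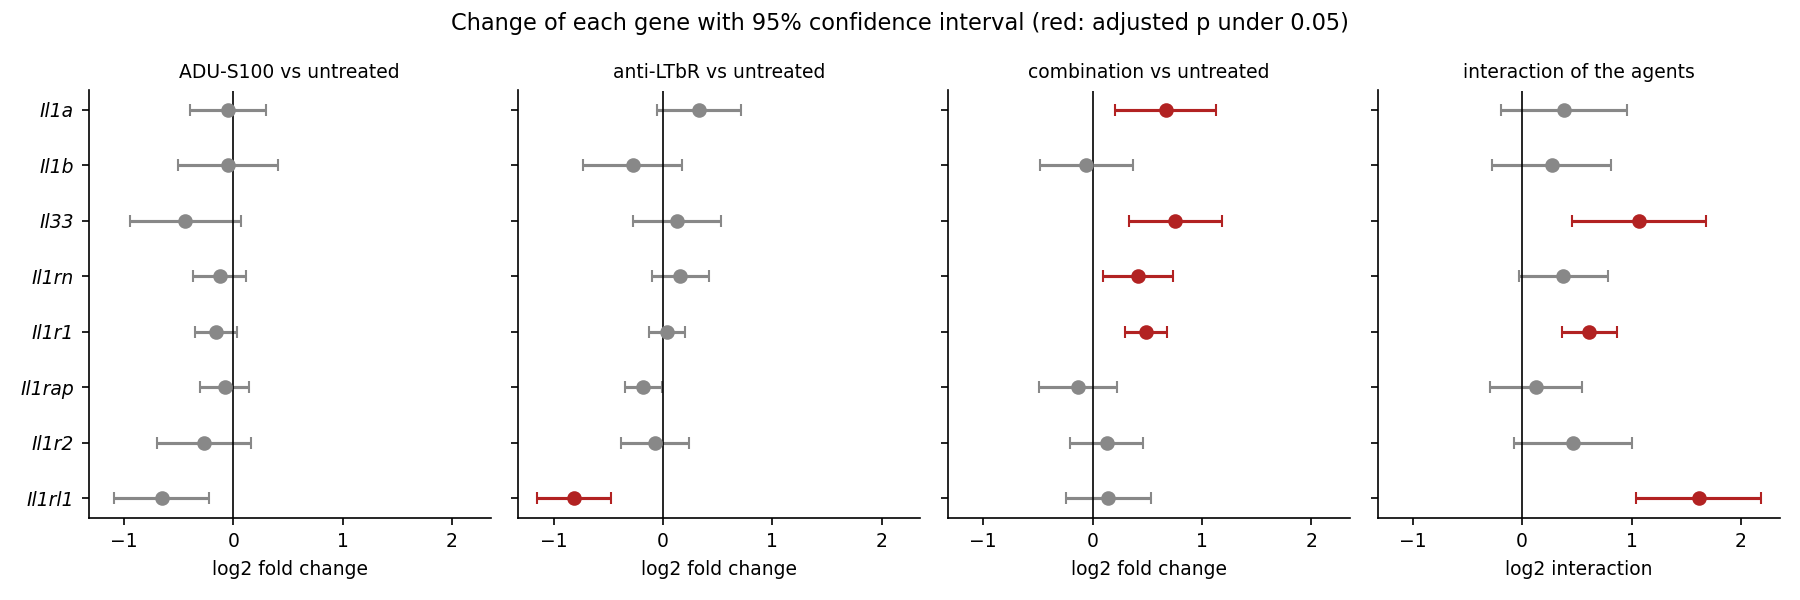
Log2 fold change against untreated tumors (first 3 panels) and log2 interaction of the agents (last panel) for each gene, with 95% confidence intervals from limma; red marks an adjusted p under 0.05. *Il1rl1* is at -0.82 after anti-LTβR, 0.14 after the combination and 1.61 for the interaction.

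*Il1r2*, *Il1r1* and *Il1rl1* are neighbours in a cluster of 6 receptor genes on chromosome 1 of GRCm39 (40113239 to 40590865, plus strand for these 3 members), which also holds *Il1rl2*, *Il18r1* and *Il18rap*. *Il1rl2*, the IL-36 receptor, had a log2 fold change of 1.02 in combination against untreated tumors (SE 0.197, adjusted p = 0.000649), with 550 ± 217 against 256 ± 47.1 normalized counts (SD, n = 8 each). *Il18r1*, the IL-18 receptor chain, had one of 1.00 (SE 0.148, adjusted p = 8.70e-05), and its combination tumors (141 to 233) lay above all untreated tumors (68.9 to 121). *Il18rap*, its partner chain, had one of -0.05. *Il1r2*, *Il1rl1* and *Il18rap* thus did not pass, and *Il1r1*, *Il1rl2* and *Il18r1* did. After anti-LTβR only *Il1rl1* of the 6 passed. *Il1rl1* ends at 40504575 and *Il18r1* starts at 40504712 on the same chromosome, so reads past the end of the first could be counted to the second.

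**Figure D4:**
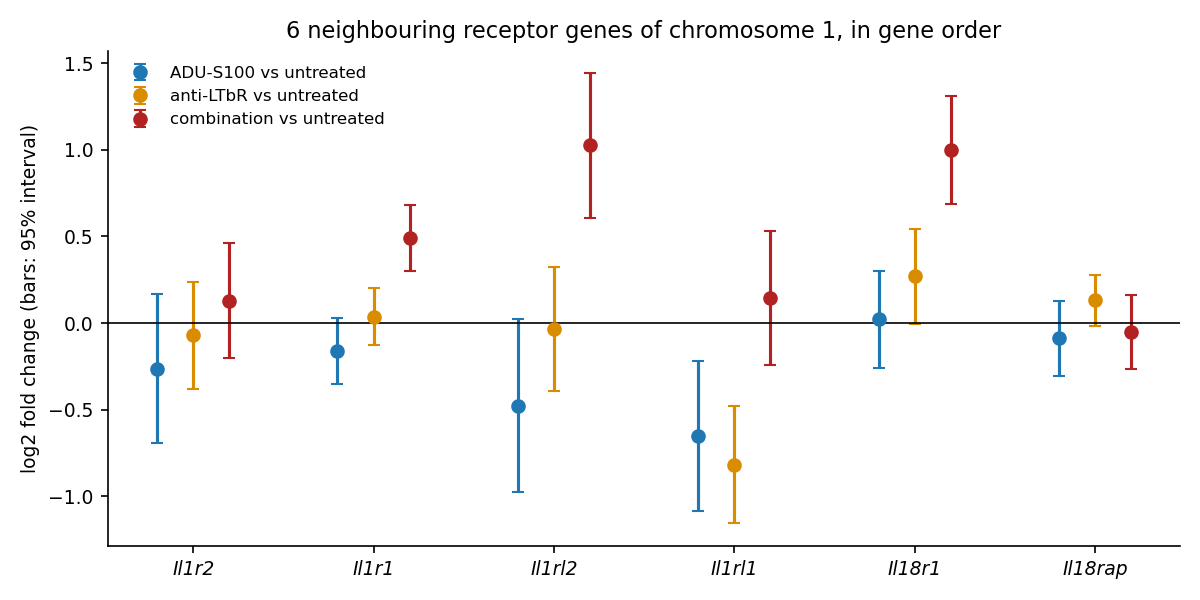
Log2 fold change against untreated tumors with 95% intervals (y axis) for the 6 neighbouring receptor genes in their order on chromosome 1, in 3 comparisons that share the untreated tumors. *Il1rl2* and *Il18r1* sit near 1 after the combination, and *Il1rl1* sits below 0 after either agent alone.

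Other genes of the pathway were taken from lists, chosen with earlier results of these data known. Their counts stand beside the 43.2% of all genes called in combination against untreated tumors, 19.6% as higher. Of 7 other receptors and decoys of the family, 5 were tested in combination against untreated tumors. Of these *Il18r1*, *Il1rl2* and the IL-18 binding protein *Il18bp* were higher, and the inhibitory receptor *Sigirr* was lower, at 414 ± 37.7 against 573 ± 93.9 normalized counts (log2 fold change -0.46, SE 0.0868, adjusted p = 0.000574). *Il1rapl1* had no row in the table and *Il1rapl2* was at 0 in 5 of 8 untreated and 5 of 8 combination tumors. Of 6 other ligands of the family 4 were tested and 0 passed with limma. The IL-36 antagonist *Il36rn* ran from 1.95 to 210 in untreated and from 0.964 to 348 in combination tumors, an overlap over nearly the whole range. *Il18* averaged 94.2 ± 22.6 with both agents against 103 ± 20.9 untreated.

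Of 15 genes of IL-1 receptor signalling 4 were higher and 3 lower, which is near the share of all genes called, with a median log2 fold change of -0.00 beside -0.02 over all genes tested. *Irak3*, an inhibitor of the IRAK kinases, was at 208 ± 45.7 in combination and 124 ± 23.7 in untreated tumors (log2 fold change 0.75, SE 0.142, adjusted p = 0.000591). The ubiquitin ligase *Peli1* was higher (0.23, adjusted p = 0.00292) and *Tollip*, a negative adaptor of the pathway, was lower (-0.20, adjusted p = 0.00241).

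Of 16 genes of the inflammasomes and of cytokine processing 11 were higher and 2 lower in combination tumors, with a median log2 fold change of 0.33. The DNA sensor *Aim2* was at 171 ± 19.5 against 103 ± 14.5 (log2 fold change 0.73, SE 0.0966, adjusted p = 4.14e-05). The lower genes were *Capn2*, a calpain, the class of protease that processes IL-1α (-0.46, adjusted p = 1.03e-05), and *Nek7*, a partner of NLRP3 (-0.34, adjusted p = 0.000163).

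Of 17 IL-1 responsive genes tested 6 were higher and 2 lower, with a median log2 fold change of -0.02. The adhesion molecule *Icam1* was at 856 ± 241 against 377 ± 59.9 (log2 fold change 1.15, SE 0.159, adjusted p = 5.52e-05), and *Tnfaip3*, an inhibitor of NF-κB, was higher (0.46, adjusted p = 0.000735). The chemokine *Ccl20* was at 4.89 ± 4.32 against 19.9 ± 12.2 normalized counts (-2.01, adjusted p = 0.00433). *Csf3* did not pass the filter and was at 0 in 3 of 8 untreated tumors. *Icam1*, *Tnfaip3* and *Ccl20* also respond to other NF-κB stimuli.

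Of 14 effectors of type 2 immunity downstream of IL-33, 10 were tested, 2 were higher and 1 lower in combination against untreated tumors. The eosinophil chemokine *Ccl11* was at 387 ± 122 against 215 ± 92.1 (log2 fold change 0.89, adjusted p = 0.00610) and the transcription factor *Rora* at 431 ± 59.9 against 236 ± 81.2 (0.92, adjusted p = 0.000457). *Areg*, which encodes the growth factor amphiregulin, was at 2883 ± 646 against 6759 ± 1739 (-1.22, adjusted p = 2.68e-05). The type 2 cytokine genes themselves were near the limit of detection. *Il9* had no row in the table, and *Il4*, *Il5* and *Il13* averaged between 1.06 and 3.69 normalized counts per group and did not pass the filter. These lists also hold genes that other cell types and pathways use. After anti-LTβR, where 15.3% of all genes were called, the counts higher and lower were 1 and 0 of 5 other receptors, 2 and 1 of 15 signalling, 3 and 1 of 16 inflammasome, 1 and 2 of 17 IL-1 responsive and 0 and 1 of 10 type 2 genes, and 0 of 3 other ligands passed. After ADU-S100 none of these genes passed with limma. For the interaction, where 18.4% of all genes were called and 7.33% as positive, the counts that passed as positive and as negative were 2 and 1 of 5 other receptors, 1 and 2 of 15 signalling, 3 and 2 of 16 inflammasome, 5 and 0 of 17 IL-1 responsive and 2 and 0 of 10 type 2 genes, and 0 of 5 other ligands passed. The receptors were *Il1rl2* (1.54), *Il18r1* (0.71) and *Sigirr* (-0.31).

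Marker levels of several cell types were set beside the members. Their counts in combination against untreated tumors are read against the 43.2% of all genes called there, 19.6% as higher. The sum of 14 mast cell markers had a median of 1641 in untreated tumors (1274 to 3228), 829 in ADU-S100 (391 to 2557), 500 in anti-LTβR (310 to 714) and 535 in combination tumors (389 to 950). The anti-LTβR and combination tumors thus lay below every untreated tumor, also the combination tumors in which *Il1rl1* was not lower. Of 13 mast cell markers tested 9 were lower and 2 higher in combination against untreated tumors. The lower ones include the proteases *Mcpt1* (log2 fold change -3.86, adjusted p = 1.26e-05), *Mcpt2* (-4.17, adjusted p = 5.47e-05) and *Tpsb2* (-2.29, adjusted p = 5.12e-05). *Kit* and *Gata2*, which other cells also express, were the higher ones (0.39 and 0.57). No mast cell marker was at 0 in all tumors of a group. Across the 32 tumors *Il1rl1* had a Pearson correlation of 0.504 with the log2 mast cell sum, and of 0.663 after the group means were taken out, the highest within-group value of *Il1rl1* among the marker lists. This was not particular to *Il1rl1*, since *Il1rap* had 0.555, and 0.655 within groups. Within groups *Il1r2* had 0.587 and *Il33* 0.497 with that sum, and the other members ran from -0.169 (*Il1a*) to 0.309 (*Il1r1*). For the interaction all 14 mast cell markers were above 0, of which 5 passed the test. After anti-LTβR 9 of 12 were lower and 0 higher, among them *Mcpt2* (-3.27) and *Mcpt1* (-3.16). The part of mast cells in the *Il1rl1* levels was not tested.

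Fibroblast markers were among those that moved with *Il1r1*. Their sum over 10 genes had a median of 89750 in untreated (72620 to 114700), 75140 in ADU-S100 (57300 to 144500), 101100 in anti-LTβR (62530 to 133900) and 266100 in combination tumors (128800 to 459100), and 9 of 10 were higher in combination against untreated tumors, among them *Col3a1*, *Dpt* and *Col1a1* (log2 fold changes 1.58, 1.95 and 1.54). Across the 32 tumors *Il1r1* had a Pearson correlation of 0.889 with the log2 sum, and of 0.675 after the group means were taken out. *Il1r1* also had 0.842, and 0.475 within groups, with the endothelial sum. With the regulatory T cell sum it had 0.776, and 0.399 within groups. With the fibroblast sum the values were 0.594 and 0.505 for *Il1rl1*, 0.639 and 0.196 for *Il33*, and 0.090 and 0.116 for *Il1b*. These are descriptions, since all values of a tumor come from 1 library. None of the 10 genes was at 0 in any tumor, and the part of fibroblasts in these levels was not tested.

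*Il33* had its highest correlation among the marker sums with the 6 regulatory T cell markers (0.795, and 0.551 within groups). Their sum had a median of 501 in untreated (410 to 633), 468 in ADU-S100 (395 to 582), 579 in anti-LTβR (477 to 699) and 701 in combination tumors (603 to 806), and 4 of 6 were higher in combination against untreated tumors, namely *Il2ra* (1.16), *Tnfrsf18* (0.51), *Ctla4* (0.59) and 1 other. The log2 fold change was below 0 for 1 of the 6. The largest part of the sum was *Ikzf2* in untreated tumors (34.4%) and *Il2ra* in combination tumors (23.3%). Of 10 endothelial markers 10 were higher (*Erg* 1.46, *Tie1* 1.26 and *Cdh5* 0.90), with a sum of 3167 to 4487 in combination against 1650 to 2566 in untreated tumors. Their correlation with *Il33* was 0.685, and 0.214 within groups.

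Myeloid markers were compared because these cells are the main source of IL-1β. Of 12 monocyte and macrophage markers 7 were higher in combination against untreated tumors, among them *Lyz2* (1.28), *Cd68* (0.85) and *Csf1r* (0.60), and their sum was 46140 to 93210 against 28510 to 57800. Its correlation was 0.687 with *Il1a* (0.434 within groups) and -0.073 with *Il1b* (-0.001 within groups). Of 11 neutrophil markers tested 3 were higher, a share not far from that of all genes, *Mmp9* (1.52), *Mmp8* (1.10) and *Csf3r* (0.63), and the sum ran from 6795 to 34400 against 4068 to 10520. *Il1b* had a correlation of 0.038 with that sum. The dendritic cell sum was 2107 to 2756 in combination and 1323 to 2040 in untreated tumors, with 4 of 7 markers higher (*Zbtb46* 0.92, *Itgax* 0.49 and *Clec9a* 0.84).

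T cell and epithelial markers were also compared. All 5 T cell markers were higher in combination against untreated tumors (*Trac* 0.93, *Cd3e* 1.01 and *Cd2* 0.84), with a sum of 791 to 1395 against 397 to 992. Of 7 epithelial tumor cell markers 5 were lower (*Msln* -1.53, *Krt18* -1.46 and *Krt8* -0.92), with a sum of 7668 to 16580 against 18280 to 34370. No muscle marker passed in any comparison, and skin markers passed only after anti-LTβR and for the interaction. In combination against untreated tumors the smallest p were those of *Krt1* (1.05, adjusted p = 0.532) and *Myh1* (1.57, adjusted p = 0.155). Within groups the log2 sum of skin markers had a correlation of 0.699 with *Il1r2*, 0.609 with *Il1rap*, 0.483 with *Il1rl1*, 0.451 with *Il1r1*, 0.450 with *Il33*, 0.345 with *Il1rn*, 0.193 with *Il1b* and -0.010 with *Il1a*.

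**Figure D5:**
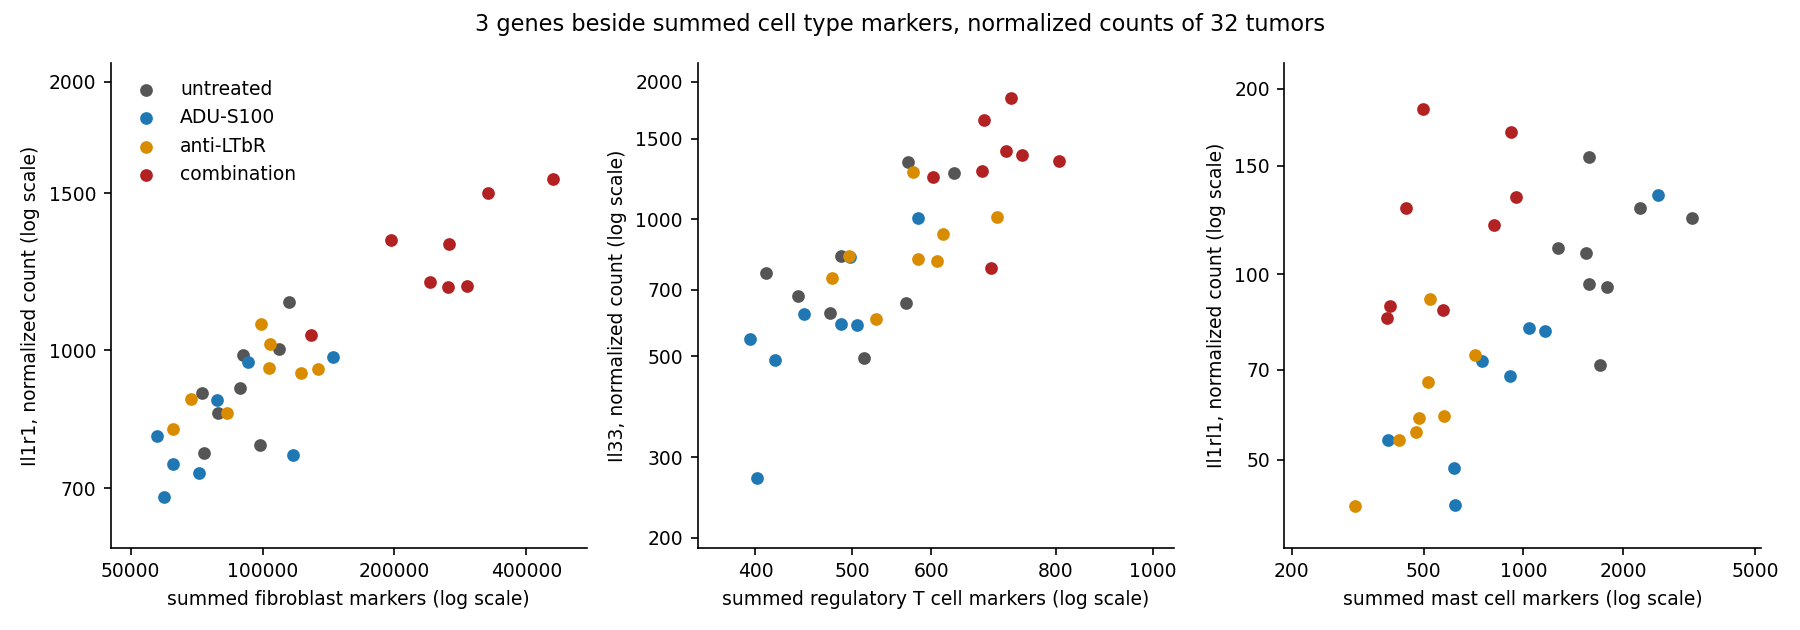
Normalized counts of *Il1r1*, *Il33* and *Il1rl1* (y axes) against the summed normalized counts of fibroblast, regulatory T cell and mast cell markers (x axes), all on log scales; each point is 1 of 32 tumors, colored by group. *Il1r1* follows the fibroblast sum, and combination and anti-LTβR tumors overlap in the mast cell sum (389 to 950 and 310 to 714) while *Il1rl1* runs from 84.9 to 185 and from 42.0 to 91.2.

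The genes whose pattern over the 32 tumors was most like that of each member were sought among 17649 genes. For *Il1r1* these were *Gm5535* (Pearson r = 0.930), *Gpr153* (0.918) and *B3gnt9* (0.911), and for *Il1rl1* *Hoxb2* (0.898), *Mamdc2* (0.828) and *Tnc* (0.827), the gene of the matrix protein tenascin C. *Il33* was most like the bradykinin receptor *Bdkrb1* (0.824), the chemokine *Ccl19* (0.820) and *Nt5dc2* (0.810). *Ccl19* kept a correlation of 0.729 with *Il33* after the group means were taken out. *Il1a* was most like the β-glucan receptor *Clec7a* (0.764), *Gpm6b* (0.756) and *Wfdc17* (0.754), and *Il1rn* most like *Glrx* (0.758), *Scin* (0.749) and *Prss46* (0.748). For *Il1r2* the genes were *Ankrd35* (0.790), *Ly6m* (0.777) and *Smpd3* (0.767), and for *Il1rap* *Degs1* (0.775), *Klk8* (0.727) and *Cask* (0.725). *Il1b* had the weakest neighbours, *Dnajc1* (0.562), *Pilrb1* (0.553) and *Spint1* (0.550). Within groups these correlations ran from 0.534 to 0.842.

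Among the members themselves the highest correlation was that of *Il33* with *Il1r1* (0.780, and 0.507 within groups), followed by *Il1a* with *Il1rn* (0.722 and 0.577) and *Il33* with *Il1rn* (0.709 and 0.522). The neighbours *Il1a* and *Il1b* had 0.396, and 0.579 within groups. The ligand *Il33* and its receptor *Il1rl1* had 0.527, and 0.417 within groups. These values describe 32 tumors and carry no test.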

How the data were processed

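Poly(A) RNA of 32 individual tumors was sequenced by the authors. The labels name cutadapt 1.9, FastQC, HISAT2, STAR, StringTie, Partek, edgeR and DESeq2 and the build mm39, and which of them made each table was not settled. For these libraries the deposited table gives the normalized values used for levels and limma, and the scaling of each library was not recovered from it. Read depths and the edgeR and DESeq2 fits rest on a larger table. In that larger table of 52 libraries the deposited signal lies on whole multiples of 1 step per library. Reads were recovered with that step (at least 99.94% whole within 0.05 of a read). In 16 of 32 libraries that step is within 2% of 1. A deposited table of the authors' enrichment scores and p-values was not used.

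Groups and replicate numbers came from the labels, which give all 32 tumors the same experiment tag. Nothing else in the labels separates experiments or batches among them. The study's figure legend speaks both of a single experiment and of independent experiments combined, so an experiment effect within the groups, which no fit models, is possible. Differences were tested with limma 3.58.1 (R 4.3.3, trend) on log2(value + 1), so fold changes of low genes are understated. Low genes were removed with filterByExpr (edgeR 4.0.16, minimum 10), p-values were adjusted over all genes tested (Benjamini-Hochberg), and adjusted p under 0.05 was called. Pairwise fits used 16 tumors and the interaction 32. Alternatives were a pseudocount of 0.5, no filter, 2 rescalings, a joint fit, the replicate block, edgeR, DESeq2 1.42.0 and leaving out each tumor, and, chosen after seeing the data, the skin and muscle covariates. The fits were tested on simulated data. Exon lengths were the union of all exons of a gene in GENCODE vM21 (GRCm38), and gene positions came from the deposited table. The members and lists were chosen with earlier results of these data known. Named were all members, up to 3 genes per list by adjusted p in combination against untreated tumors, and 3 like genes per member by correlation. Other named list genes were chosen after their values were seen. An allele of the cell line and a marker list are not reported here.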

Additional observations from a re-analysis of the deposited data

Results flagged for a closer look

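Of 32 sets of 8 tumors (8 genes in 4 groups) 2 held a tumor far from the others by Dixon's criterion, where chance gives about 1 in 20. *Il1rap* was at 533 normalized counts in untreated tumor 7, against 377 to 435 in the other 7. *Il1rl1* was at 135 in ADU-S100 tumor 1, against 42.2 to 81.9 in the other 7, and this tumor also had the highest sums of mast cell (2557) and skin keratinocyte markers (42490) in its group. Their part in the value was not tested.

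The effect of one agent differed with and without the other for 3 of 8 genes by the interaction test of limma, beside 18.4% of all genes tested (7.33% positive): *Il1rl1* (1.61, adjusted p = 0.000521), *Il1r1* (0.61, adjusted p = 0.00135) and *Il33* (1.07, adjusted p = 0.0130). The last was not past the threshold with the skin and muscle covariates (0.76, adjusted p = 0.0686).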

How the results depend on the processing

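The number of the 8 genes called was 4, 1, 0, 3, 5 and 3 (combination, anti-LTβR and ADU-S100 against untreated, combination against anti-LTβR and against ADU-S100, and the interaction), and it was the same with the other pseudocount, filter, scalings, edgeR and DESeq2, and for the pairwise comparisons with the joint fit. Leaving out each tumor gave 3 to 4, 1, 0, 3 and 5 to 6 for the pairwise comparisons. With the skin and muscle covariates, chosen after seeing the data, 2 genes were called in combination against untreated tumors and 2 for the interaction, and the cause was not tested. Signs changed in 27 of 1061 values, 0 of them for a called gene. With the covariates *Il1r2* was at 0.0352 after anti-LTβR, *Il1rap* at 0.0210 after ADU-S100, -0.14 in combination against anti-LTβR and -0.16 for the interaction, and *Il1b* at 0.0906 in combination against ADU-S100. In that last comparison *Il1b* was at 0.0205 with equal library totals and 0.00628 with edgeR, and *Il1rap* at 0.0299 with edgeR and 0.0119 with DESeq2. Leaving out each tumor put *Il1b* between -0.16 and 0.0645 in combination against untreated tumors, between -0.0954 and 0.0609 in combination against ADU-S100 and between -0.15 and 0.0726 in ADU-S100 against untreated tumors. It put *Il1a* between -0.16 and 0.00858 after ADU-S100, and *Il1rap* between -0.0608 and 0.16 in combination against anti-LTβR and between -0.16 and 0.0552 in combination against ADU-S100.

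The replicate numbers belong to different mice and did not pair the tumors by the rule that every pair's correlation of deviations be over 0.1. In the order of the 5 pairwise comparisons above the mean same-number correlation was 0.0181, -0.0855, 0.186, 0.173 and -0.0719, with 4, 3, 6, 5 and 2 of 8 pairs over 0.1 and 1, 1, 2, 3 and 1 of 8 tumors most like their own number. With the replicate block the number of the 8 genes called was again 4, 1, 0, 3, 5 and 3. Over all genes tested the count after anti-LTβR went from 2555 to 1660 with the block, 1349 with the covariates, 1582 without untreated tumor 1 and 1665 without anti-LTβR tumor 7, and to 3366 with the joint fit, 3178 with DESeq2 and at most 2927 with a tumor left out. After ADU-S100 that count was 0 with limma, 1 with edgeR, 24 with DESeq2, 2 with the block and 0 to 6 with a tumor left out. Genes at a few counts, such as *Il5* and *Il13*, are limited by depth.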

Other observations

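The larger table holds 20 libraries of another experiment, whose depth ran from 8716257 to 18789131 recovered reads in 5 tumors labelled as the combination and from 16006599 to 18821792 in 15 tumors whose labels name no single group. None was compared. On the scale of that table *Il1rl1* ran from 22.7 to 648 with a median of 118 in the 5 tumors and from 48.4 to 451 with a median of 128 in the 15, while the 8 combination tumors described above ran from 85.9 to 195. *Il1r2* ran from 268 to 640 in the 5 and from 116 to 585 in the 15, and from 95.1 to 195 in the 8. *Il33* ran from 438 to 2501 in the 5, with a median of 1623, and from 553 to 2273 in the 15, with a median of 1533, beside 823 to 1933 in the 8, with a median of 1403. *Il1b* ran from 720 to 2433 in the 5 and from 233 to 2115 in the 15, beside 416 to 751 in the 8. *Il1r1* ran from 359 to 1579 in the 5, with a median of 1001, and from 782 to 1643 in the 15, with a median of 952, beside 1054 to 1632 in the 8, with a median of 1299.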
